A study of Mus musculus with 6 samples.

Results

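The 10 genes described here encode the pumps and carriers that move bile salts, phospholipids and conjugated wastes across the hepatocyte membrane. They were chosen by symbol, and each matched exactly 1 of the 55487 genes in the deposited tables. Of them, 5 act at the canalicular membrane (Abcb11, Abcb4, Abcb1a, Abcc2 and Abcg2) and 5 are placed at the basolateral membrane (Abcc3, Abcc4, Abcc6, Slc51b and Slc10a1). Slc10a1 is not an exporter, since it encodes the carrier that takes bile salts up from blood, and Abcc6 encodes a protein known for ATP release rather than for bile flow.

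The libraries came from livers of male C57/Bl6J mice on a high-fat diet (HFD). The 3 mutant livers are labelled RXRa f/f Alb cre+/-, and the design text names mutants of Rxra S65A, a change that the genotype labels do not mention. The 3 control livers are labelled Alb cre +/-, so both groups carry Cre recombinase driven by the albumin promoter, a hepatocyte promoter that is largely silent in other liver cells. The titles name the mutants Cre and the controls WT, and the age of the animals is not given in the sources used here. Labels do not tie each library to an animal of its own, so the p-values refer to the spread among libraries, which may be technical.

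Bile forms when hepatocytes pump solutes into the canaliculus, and water follows. The bile salt export pump sets the rate of bile salt secretion, phosphatidylcholine is flopped outward to shield membranes from those salts, and MRP2 adds conjugated bilirubin and glutathione conjugates. Basolateral exporters such as MRP3 and MRP4 return conjugates to blood and are known to rise when bile flow is blocked. Many of these genes answer to nuclear receptors that bind DNA together with RXRα, the product of Rxra: FXR for Abcb11 and the organic solute transporter, and CAR and PXR for several conjugate pumps. NRF2, an oxidant-sensing factor, is known to act on Abcc2, Abcc3 and Abcc4.

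The promoters of Abcb11 and Abcc2 are printed as examples, and each holds the letters of a known receptor or NRF2 motif close to its RefSeq start. Windows of Abcc4 and Abcb1a also held the NRF2 motif but are not printed. Both printed windows come from RefSeq on GRCm38.p6 (mm10). Each window runs from 250 bases before to 50 bases after a RefSeq transcript start, in the 5′ to 3′ direction of the gene. Of the 10 genes, 8 had 1 or more such windows, 12 windows in all (Abcb11, Abcb4, Abcb1a, Abcc2, Abcc4, Abcg2, Slc10a1 and Slc51b). Capitals in Abcb11 (chr2:69342567-69342866, minus strand) mark a match, with up to 1 mismatch, to AGGTCA and TGACCT with 1 base N between them, the inverted repeat to which FXR and RXR bind as a pair. Capitals in Abcc2 (chr19:43782058-43782357, plus strand) mark a match to TGACNNNGC, the core of the antioxidant response element bound by NRF2.
Abcb11: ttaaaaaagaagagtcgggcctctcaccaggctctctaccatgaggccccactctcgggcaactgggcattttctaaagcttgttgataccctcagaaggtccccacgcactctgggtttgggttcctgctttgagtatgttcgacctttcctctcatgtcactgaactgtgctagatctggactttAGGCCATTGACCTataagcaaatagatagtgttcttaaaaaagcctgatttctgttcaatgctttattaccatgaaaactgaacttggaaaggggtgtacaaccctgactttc
Abcc2: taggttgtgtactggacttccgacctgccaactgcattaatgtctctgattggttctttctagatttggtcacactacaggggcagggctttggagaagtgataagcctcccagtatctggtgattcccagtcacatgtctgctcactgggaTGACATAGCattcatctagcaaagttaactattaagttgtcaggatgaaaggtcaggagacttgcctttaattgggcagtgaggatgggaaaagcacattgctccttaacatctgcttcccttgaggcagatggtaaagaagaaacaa

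The inverted repeat of Abcb11 lies at bases -63 to -51 from the transcript start and departs from the consensus by T4C, counted from 1 at the 5′ end of the printed strand. Among 32851 mouse promoter windows of the same length, 0.082% held such a match on either strand, and Abcb11 was the only transporter gene with one. This consensus form was chosen after the promoters had been seen, so the share is descriptive only. The antioxidant core was found in 12.4% of windows, and among the transporter genes in those of Abcc2 (bases -98 to -90), Abcc4 and Abcb1a. A direct repeat (GGNCAN followed by AGGNCA, a form bound by RXR with other receptors) was in 0.801% of windows, and in no transporter window. A further pattern, GGNCAN followed by TGANCC, was in 0.356% of windows and in no transporter window, but its spacing cannot match the inverted repeat given above, so it says nothing about that motif. Both strands were searched for each motif, and no capitals of the printed windows belong to more than 1 motif. The window of Abcb1a lies 92986 bases from the gene start in GENCODE release M21, and it is not printed. The RefSeq start used for Abcc2 lies 116 bases downstream of its start in that release. The antioxidant core printed for Abcc2 thus falls inside the gene as GENCODE places it. A match is a description of letters and not a bound site, and windows without a match say nothing about the factor.

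Values are given on 2 scales. CPM, the estimated count scaled to library size with TMM factors that set the typical gene equal between libraries, is used to compare livers. TPM, which also corrects for gene length, is used to compare genes. Library totals ranged from 35847386 to 43162557 estimated counts. The major urinary protein (Mup) genes took 12.8% to 16.9% of the estimated counts in mutant livers and 1.85% to 3.09% in control livers, and both library totals and TPM give each gene as a share of such a whole. The median log2 fold change of all tested genes was -0.40 at library totals and -0.55 in the fit on log2(TPM + 0.1). Correlations of log2 CPM were 0.983 to 0.988 among mutant libraries, 0.986 to 0.988 among control libraries and 0.964 to 0.970 between groups. Rxra itself had 699, 522 and 609 CPM in mutant livers and 501, 471 and 413 CPM in control livers, without overlap. Its log2 fold change of 0.40 missed the threshold in edgeR with TMM (edgeR adjusted p = 0.0724). Some alternatives did call Rxra higher. These were edgeR with no filter (edgeR adjusted p = 0.0356), edgeR without mutant replicate 2 (0.0388) and DESeq2 (0.0255). Leaving out any other library gave no call. The log2 fold change was 0.0076 at library totals and -0.20 in the limma fits on TPM. Values per gene cannot show which form of the protein the transcripts encode.

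Abcb1a and Abcc3 were lower in mutant livers, and no transporter gene passed the test in the other direction. The count of 2 of 10 stands beside 13.5% of all 14286 tested genes called in either direction, and beside 6.82% called lower and 6.64% called higher (edgeR's quasi-likelihood test, Benjamini-Hochberg adjusted p under 0.05). At an unadjusted p under 0.05 there were 2 higher and 2 lower, against 14.1% and 14.9% of all tested genes, and DESeq2 called 1 higher and 2 lower, where it called 9.65% of all genes higher and 10.5% lower. At library totals 4 of the 10 were called lower, against 31.5% of all genes, and 2 at totals without Mup genes, against 13.7%. In the limma fit on log2(TPM + 1) 7 were called lower, against 63.6% of all genes. The median log2 fold change of the 10 was 0.04, against 0.00025 for all tested genes. In CPM, 5 of the 10 genes separated the genotypes without overlap, 2 with the mutants lower and 3 with the mutants higher. The same held for 34.9% of all tested genes, 17.5% lower and 17.4% higher. Both falls kept their direction and their call under each of the 16 alternatives. Since the RNA came from whole liver, fewer cells of a type and less RNA per cell cannot be told apart.

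**Figure D1:**
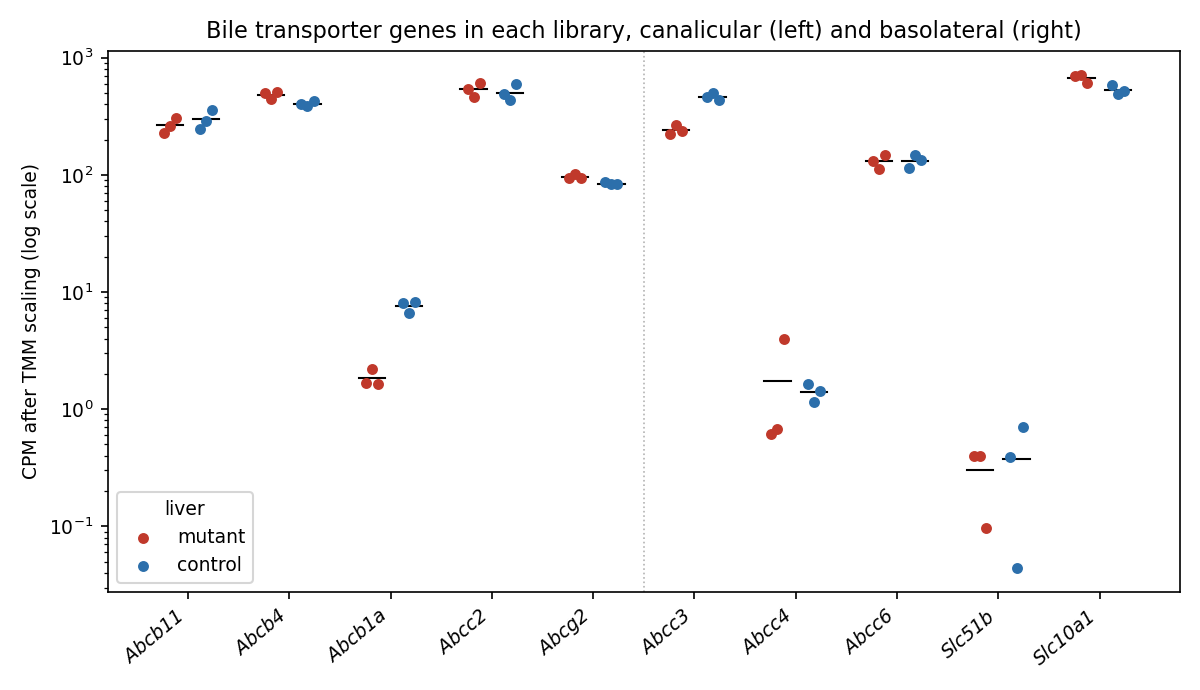
Level of each transporter gene in each library, in CPM after TMM scaling on a log axis, with mutant livers left of control livers. Points are libraries and black lines are means of 3 libraries. Abcb1a at 1.63 to 2.21 CPM and Abcc3 at 221 to 267 CPM in mutant livers lie below every control library, and a lone mutant library lifts the mean of Abcc4.

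At the canalicular membrane, Abcb11 encodes the bile salt export pump, the main route of bile salts into bile. It had 230, 263 and 306 CPM in mutant livers, against 245, 287 and 360 CPM in control livers. The groups overlapped, with the highest value in a control liver. The log2 fold change was -0.16 ± 0.16 (standard error) and did not pass (edgeR adjusted p = 0.551), with an unadjusted 95% interval of -0.52 to 0.20. The direction rested on control replicate 3, without which the log2 fold change was 0.00136. At library totals Abcb11 was called lower (log2 fold change -0.56, edgeR adjusted p = 0.0263), and likewise in the limma fits on TPM.

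Abcb4, the floppase that supplies bile with phosphatidylcholine, had 495, 441 and 514 CPM in mutant livers and 403, 388 and 427 CPM in control livers. Every mutant library was above every control library on this scale. On the log2 scale the difference was 0.25 ± 0.09 and missed the threshold (edgeR adjusted p = 0.118, unadjusted 95% interval 0.04 to 0.47). It was -0.15 at library totals and -0.35 in the limma fit on log2(TPM + 0.1), where it was called lower (limma adjusted p = 0.0233), so its direction depends on the scaling.

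Abcb1a encodes a P-glycoprotein, a pump for drugs and other hydrophobic compounds, and lies in a cluster with Abcb1b and Abcb4 on chromosome 5. It had 1.68, 2.21 and 1.63 CPM in mutant livers, against 8.11, 6.62 and 8.20 CPM in control livers. The lowest control library was well above the highest mutant library. Abcb1a fell by 2.05 ± 0.22 on the log2 scale, 4.15-fold lower in mutant livers (edgeR adjusted p = 0.00127), with a 95% interval of -2.57 to -1.54. Among the 974 genes called lower it ranked 178 by size of the fall. The values rest on 186 estimated counts over the mutant libraries and 1033 over the control libraries. Leaving out each library in turn gave log2 fold changes of -2.21 to -1.98.

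In mm10 coordinates from GENCODE release M21, Abcb1a (ENSMUSG00000040584.8) spans bases 8660077 to 8748575 of chromosome 5, Abcb1b 8798147 to 8866315 and Abcb4 8893717 to 8959231, all on the plus strand and separated by 49571 and 27401 bases. Abcb1b, the second mouse P-glycoprotein gene, lies between the other two and had 1.03, 0.722 and 1.79 CPM in mutant livers and 0.835, 0.831 and 2.06 CPM in control livers. Its difference on the log2 scale was -0.08 ± 0.54 (edgeR adjusted p = 0.945), and mutant and control libraries overlapped widely. Abcb1a and Abcb1b are close paralogs: 5.54% of the 150-base windows of Abcb1a transcripts, the length of 1 read, also occurred in Abcb1b transcripts, and 23.3% of its 31-base windows occurred in another transporter gene, mostly Abcb1b. Reads from shared stretches may have been split between the pair, so their values are less certain than those of the other transporter genes. Abcb4 shared none of its 150-base windows.

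Abcc2 encodes MRP2, the pump for bilirubin glucuronides and glutathione conjugates. It had 541, 463 and 613 CPM in mutant livers and 485, 431 and 592 CPM in control livers, with overlap. A log2 fold change of 0.10 ± 0.14 missed the threshold (edgeR adjusted p = 0.704, unadjusted 95% interval -0.23 to 0.43), and it was -0.30 at library totals. In the limma fit on log2(TPM + 1) Abcc2 was called lower (log2 fold change -0.49, limma adjusted p = 0.0302), a call lost without the TPM minimum. Within each genotype the library called replicate 3 had the highest value of both Abcb11 and Abcc2.

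Abcg2 encodes BCRP, a pump for sulfated steroids, urate and drugs. It was the steadiest of the 10 genes, at 93.9, 101 and 94.4 CPM in mutant livers and 86.5, 83.0 and 83.3 CPM in control livers, with coefficients of variation of 4.34% and 2.28%. The groups did not overlap, but the difference of 0.20 ± 0.09 on the log2 scale missed the threshold (edgeR adjusted p = 0.173) and was -0.20 at library totals. In the 3 limma fits on TPM Abcg2 was called lower, with log2 fold changes of -0.40 to -0.39 (limma adjusted p = 0.00357 to 0.00462).

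At the basolateral membrane, Abcc3 encodes MRP3, which carries glucuronides and some bile salts back to blood. It had 221, 267 and 235 CPM in mutant livers, against 461, 498 and 434 CPM in control livers. All mutant libraries were well below all control libraries, and each genotype was tightly grouped. Abcc3 fell by 0.95 ± 0.10 on the log2 scale, 1.93-fold lower in mutant livers (edgeR adjusted p = 0.0013), with a 95% interval of -1.18 to -0.71. Among all tested genes it ranked 128 by p, next to Abcb1a at 126. Leaving out each library gave log2 fold changes of -1.03 to -0.89. The gene (ENSMUSG00000020865.16) spans bases 94343295 to 94392997 of chromosome 11 on the minus strand, and none of its 31-base windows occurred in the other transporter genes compared.

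Abcc4 encodes MRP4, a pump for conjugates and cyclic nucleotides that is scarce in healthy mouse liver. It had 0.611, 0.673 and 3.93 CPM in mutant livers, against 1.65, 1.15 and 1.44 CPM in control livers. The mutants did not form a group: replicates 1 and 2 were below every control, and replicate 3 was 2.39-fold above the highest other library. With all libraries the log2 fold change was 0.29 ± 0.70 (edgeR adjusted p = 0.829), and without mutant replicate 3 it was -1.13 (edgeR adjusted p = 0.163). The gene had 167 estimated counts over the mutants and 191 over the controls.

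Abcc6 encodes MRP6, whose loss is known to cause calcification of connective tissue. It had 130, 113 and 149 CPM in mutant livers and 115, 148 and 133 CPM in control livers, with full overlap. Its log2 fold change was -0.01 ± 0.13 (edgeR adjusted p = 0.959, unadjusted 95% interval -0.32 to 0.29). Abcc6 was called lower at library totals (log2 fold change -0.41, edgeR adjusted p = 0.0466) and in the 3 limma fits on TPM (-0.61 to -0.60, limma adjusted p = 0.0105 to 0.0321).

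Slc51b encodes the β subunit of the organic solute transporter, which works only as a pair with the α subunit from Slc51a and is known to be strong in ileum and weak in mouse liver. It was near the limit of detection, at 15.3, 12.9 and 3.01 estimated counts in mutant livers and 17.8, 1.98 and 31.1 in control livers. Its log2 fold change was -0.33 ± 0.92 (edgeR adjusted p = 0.851), and the unadjusted 95% interval of -2.43 to 1.76 shows that a difference of moderate size was not detectable at this depth. Slc51a was as scarce, with 35.7 estimated counts over the mutants and 27.9 over the controls, and its difference was 0.77 ± 0.79 on the log2 scale (edgeR adjusted p = 0.574).

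Slc10a1 encodes NTCP, the sodium-dependent carrier that brings bile salts into the hepatocyte. It had 699, 707 and 614 CPM in mutant livers and 579, 490 and 515 CPM in control livers, and the groups did not overlap. A difference of 0.35 ± 0.10 on the log2 scale missed the threshold in edgeR (adjusted p = 0.0577, unadjusted 95% interval 0.12 to 0.58). It passed with DESeq2 (adjusted p = 0.0166) and in edgeR without mutant replicate 3 (adjusted p = 0.0473), and it was -0.046 at library totals and -0.25 in the limma fits on TPM.

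**Figure D2:**
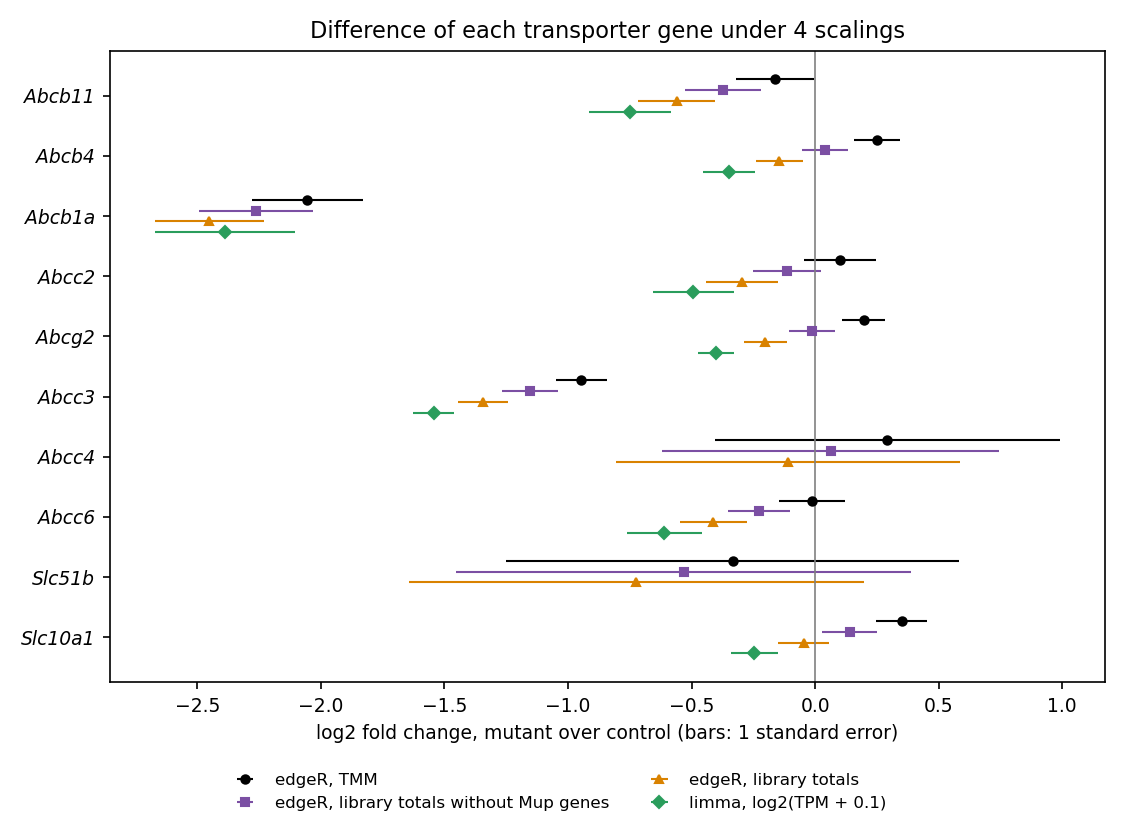
Log2 fold change of each transporter gene, mutant over control, under 4 scalings, with bars of 1 standard error. Abcb1a and Abcc3 lie left of 0 under all 4, while Abcb4, Abcc2, Abcg2 and Slc10a1 are right of 0 with TMM and left of 0 at library totals and in TPM; Abcc4 and Slc51b have no limma value because they did not reach a TPM of 1 in at least 3 libraries.

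On the TPM scale, which allows genes to be set side by side, the order of levels differed between genotypes. In mutant livers it was Slc10a1 (455 ± 34.4 TPM), Abcb4 (131 ± 15.4 TPM), Abcc2 (74.6 ± 12.8 TPM), Abcb11 (55.6 ± 8.09 TPM), Abcc3 (53.7 ± 2.75 TPM), Abcg2 (51.7 ± 0.435 TPM) and Abcc6 (31.5 ± 5.34 TPM; SD, n = 3 libraries). In control livers it was Slc10a1 (540 ± 45.5 TPM), Abcb4 (167 ± 9.78 TPM), Abcc3 (157 ± 9.64 TPM), Abcc2 (105 ± 18.1 TPM), Abcb11 (94.2 ± 19.3 TPM), Abcg2 (68.3 ± 1.38 TPM) and Abcc6 (48.0 ± 6.00 TPM). Abcc3 had rank 5 of the 10 in mutant livers, where its libraries overlapped those of both Abcb11 and Abcg2. In control livers it had rank 3, where its libraries overlapped those of Abcb4 and lay above all of Abcc2. Abcc2 and Abcb11 overlapped in both genotypes, and Slc10a1 stood above all others in every library.

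The remaining 3 genes were low. Slc51b had 0.635 ± 0.370 TPM in mutant livers and 1.22 ± 1.07 TPM in control livers. Abcb1a had 0.397 ± 0.0510 TPM in mutant livers and 2.50 ± 0.304 TPM in control livers. Abcc4 had 0.361 ± 0.399 TPM in mutant livers and 0.440 ± 0.0772 TPM in control livers (SD, n = 3 each). Libraries of all 3 overlapped in mutant livers. In control livers Slc51b overlapped both other genes, while Abcb1a lay above Abcc4 without overlap.

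Ratios between genes of the same library do not depend on how libraries are scaled, and they were compared for 6 pairs by a two-sided exact permutation test, whose smallest possible p with 3 against 3 libraries is 0.1. Transcripts of the canalicular conjugate pump MRP2 stood above those of the basolateral pump MRP3 in all 3 mutant libraries and below them in all 3 control libraries. The ratio of Abcc2 to Abcc3 TPM was 1.51, 1.07 and 1.61 in mutant livers and 0.650, 0.535 and 0.842 in control livers, a 2.07-fold difference (exact permutation p = 0.1, adjusted over the 6 pairs p = 0.2). The ratio of Abcb4 to Abcb1a, of the same gene cluster, was 368, 250 and 395 in mutant livers and 62.3, 73.3 and 65.2 in control livers, 4.96-fold higher in the mutants (exact permutation p = 0.1, adjusted p = 0.2). Neither pair of groups overlapped. Each of these ratios has as its denominator a gene already called lower on its own, Abcc3 or Abcb1a, so they are not separate findings.

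Abcb11 was low relative to Abcb4 in mutant livers, at ratios of 0.358, 0.459 and 0.459, against 0.469, 0.572 and 0.649 in control livers (exact permutation p = 0.1, adjusted p = 0.2). The groups came close to each other without overlap. The ratio of Abcb11 to Slc10a1, the transcripts of the export pump and of the uptake carrier, was 0.102, 0.115 and 0.154 in mutant livers and 0.131, 0.181 and 0.216 in control livers, with overlap (exact permutation p = 0.2, adjusted p = 0.3). Transport itself was not measured. The ratios of Abcc2 to Abcc4 and of Abcg2 to Abcc2 overlapped widely (exact permutation p = 0.8 for each pair). Abcc3 made up 5.73%, 6.94% and 6.21% of the summed TPM of the 10 genes in mutant livers, against 12.9%, 14.8% and 12.1% in control livers.

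**Figure D3:**
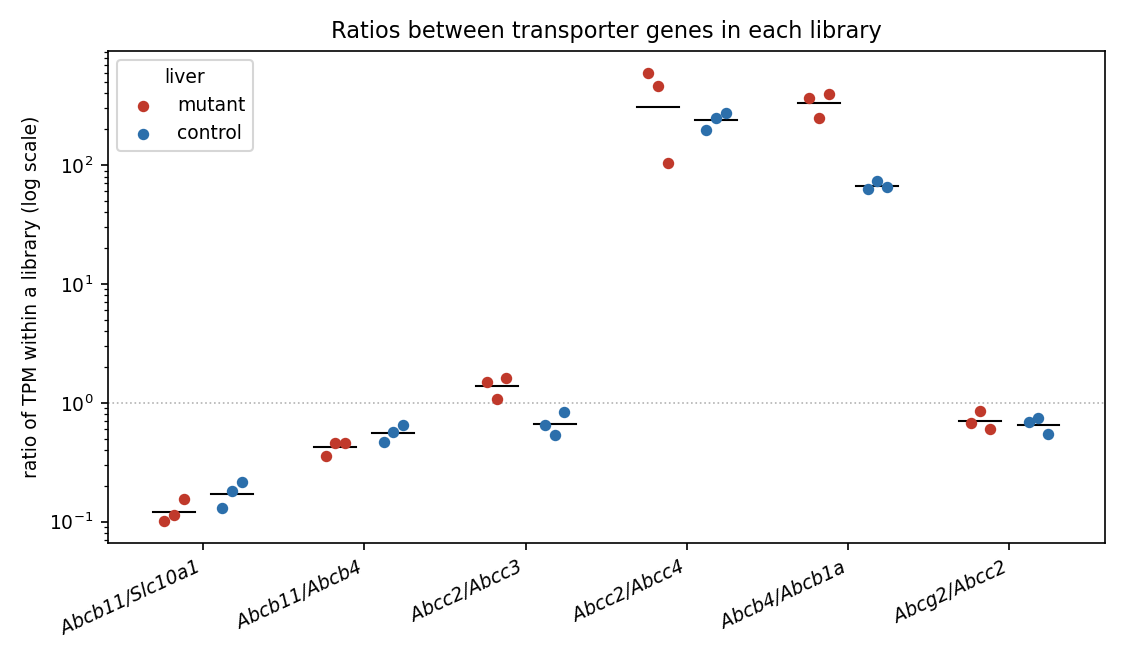
Ratio of TPM between pairs of transporter genes within each library, on a log axis, with mutant livers left of control livers. Points are libraries and black lines are geometric means of 3 libraries. Abcc2/Abcc3 lies above 1 in the 3 mutant libraries and below 1 in the 3 control libraries, and Abcb4/Abcb1a is 250 to 395 in mutant livers and 62.3 to 73.3 in control livers.

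Genes around the transporters were counted from lists that were chosen with earlier results of these data known, as were the cell type markers. Counts over such lists are descriptive only, and counts near the share of all tested genes say little about a list. Those shares were 6.82% lower and 6.64% higher in edgeR, and 10.5% and 9.65% with DESeq2. At an unadjusted p under 0.05 they were 14.9% and 14.1%. The share called lower was 31.5% at library totals, 13.7% at totals without Mup genes and 63.6% in the limma fit on log2(TPM + 1). Of 12 other exporters and their partners, among them Abcg5, Abcg8, Atp8b1 and Abcc1, 0 were called higher and 0 lower in edgeR, with 2 higher and 1 lower at an unadjusted p under 0.05 and 0 calls with DESeq2. Their median log2 fold change was 0.05 with TMM and -0.35 at library totals, where 4 were lower and 0 higher; 1 was lower at totals without Mup genes and 5 in the limma fit on log2(TPM + 1). Of 13 genes of the canalicular scaffold, tight junctions and vesicle traffic, 2 fell and 0 rose in edgeR, with 3 higher and 2 lower at an unadjusted p under 0.05 and 1 higher and 2 lower with DESeq2, while 7 were lower and 0 higher at library totals. Msn, the moesin linker of membrane to actin that other liver cells also express, had 13.4 ± 2.86 CPM in mutant livers and 29.0 ± 6.15 CPM in control livers (SD, n = 3 each; edgeR adjusted p = 0.01). Radixin, the main linker at the canaliculus, did not pass (Rdx log2 fold change 0.09).

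In the list of bile acid sensing, Vdr and Gpbar1 were near the floor in both genotypes and were not tested. They had 0 estimated counts over the mutants, and 6.00 and 2.01 over the controls. Among the 13 tested genes, 3 rose and 1 fell with TMM, while 0 were higher and 3 lower at library totals. Nr1h4, which encodes FXR, was level on this scale, with 116 ± 5.67 CPM in mutant livers and 116 ± 4.45 CPM in control livers (SD, n = 3 each; log2 fold change 0.00312, edgeR adjusted p = 0.985), and at library totals it was -0.39. Its target Nr0b2, the repressor SHP, had 17.7, 49.5 and 37.2 CPM in mutant livers and 13.3, 19.9 and 27.6 CPM in control livers, with overlap (edgeR adjusted p = 0.208). Nr1i2, which encodes PXR, rose to 73.4 ± 9.0 CPM in mutant livers, against 44.7 ± 2.61 CPM in control livers (edgeR adjusted p = 0.0073), and Hnf4a, a master factor of hepatocyte genes, to 766 ± 73.8 CPM in mutant livers, against 481 ± 32.0 CPM in control livers (edgeR adjusted p = 0.00597). Neither increase passed at library totals or in the limma fits on TPM. Both passed at totals without Mup genes, with log2 fold changes of 0.51 for Nr1i2 and 0.46 for Hnf4a (edgeR adjusted p = 0.0276 and 0.0174). The oxysterol receptor gene Nr1h3 (log2 fold change 0.37, edgeR adjusted p = 0.0347) lost its call on leaving out any library and had a log2 fold change of -0.027 at library totals. Nfe2l2, which encodes NRF2, fell to 42.5 ± 1.97 CPM in mutant livers, against 64.8 ± 6.03 CPM in control livers (edgeR adjusted p = 0.00926).

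Of 9 NRF2 targets, 6 fell and 0 rose in edgeR, with 7 lower and 0 higher both at an unadjusted p under 0.05 and with DESeq2. Of all tested genes, 6.82% were called lower in edgeR and 10.5% with DESeq2, and 14.9% were lower at an unadjusted p under 0.05. The glutathione transferase Gstm1 had 573 ± 56.2 CPM in mutant livers and 1239 ± 183 CPM in control livers, and haem oxygenase Hmox1 had 8.85 ± 2.18 CPM in mutant livers and 24.0 ± 1.21 CPM in control livers (edgeR adjusted p = 0.00171 and 0.00265). Gclc, the catalytic subunit of glutathione synthesis, had 215 ± 20.9 CPM in mutant livers and 466 ± 147 CPM in control livers (edgeR adjusted p = 0.0116). Gsta1 had 14.8 estimated counts over the mutants, all of them in replicate 3, and 1746 over the controls (edgeR adjusted p = 0.00226); it has close paralogs, so its value is uncertain. The median log2 fold change of this list was -0.997 with TMM and -1.39 at library totals, where 8 were lower and 0 higher. Abcc3, itself a known NRF2 target, was also lower, while Abcc2 and Abcc4 did not pass. Whether the fall of Abcc3 has any link to those of this list was not tested.

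CAR and PXR targets were divided, with 2 higher and 3 lower of 9 tested with TMM, and 1 higher and 5 lower at library totals. Por, the electron donor of cytochromes P450, had 719 ± 127 CPM in mutant livers and 227 ± 51.9 CPM in control livers. Cyp3a11, the main PXR target, had 111 ± 61.6 CPM in mutant livers and 933 ± 113 CPM in control livers, Gstm3 had 3.87 ± 0.703 CPM in mutant livers and 28.7 ± 6.24 CPM in control livers, and Cyp2b9 had 0.131 to 3.07 CPM in mutant livers and 81.7 to 228 CPM in control livers (edgeR adjusted p = 0.00171, 2.6e-04 and 0.00164). Of 9 genes of bile acid synthesis and conjugation, 3 rose and 0 fell in edgeR, with 4 higher and 0 lower both at an unadjusted p under 0.05 and with DESeq2. Cyp7b1, of the alternative synthesis route, had 326 ± 71.2 CPM in mutant livers and 51.6 ± 1.56 CPM in control livers (edgeR adjusted p = 1.5e-04). Cyp27a1 and Slc27a5 had log2 fold changes of 0.38 and 0.42, which were -0.014 and 0.022 at library totals, and each lost its call in 5 of the 6 fits without a library. At library totals 1 gene of this list was higher and 2 were lower.

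**Figure D4:**
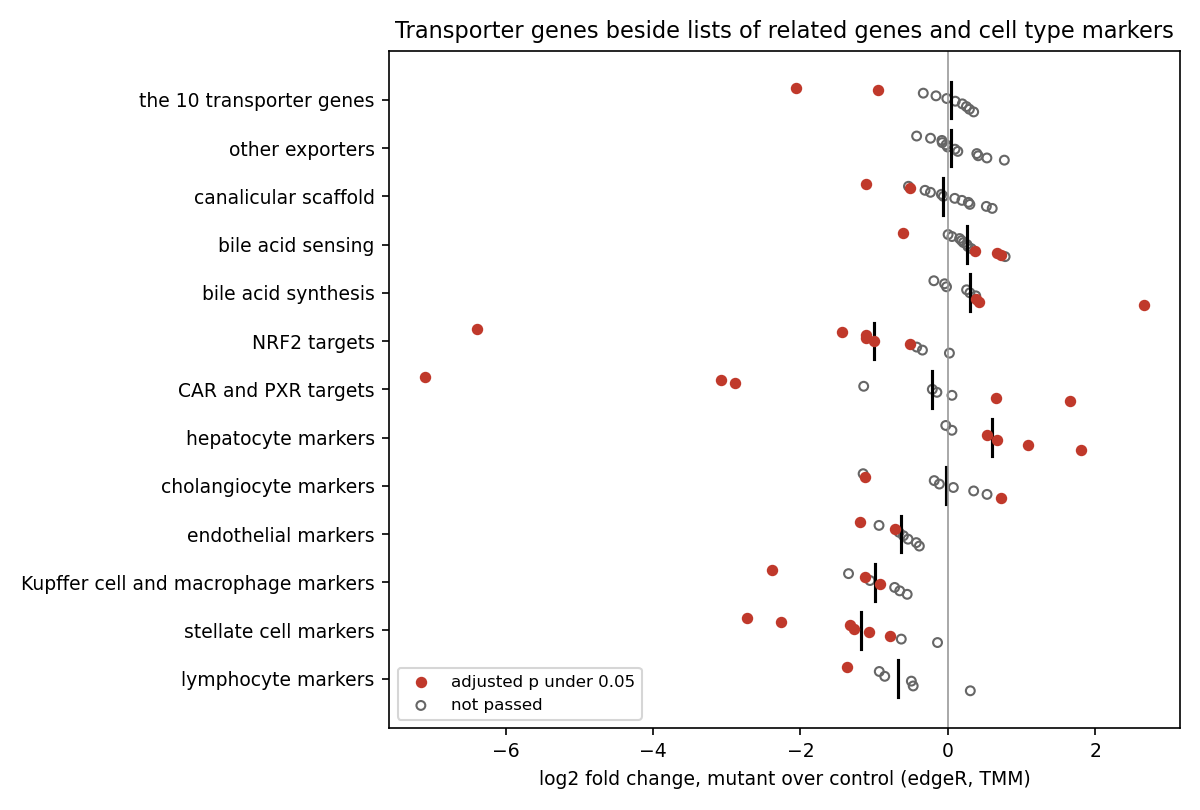
Log2 fold change of each tested gene, mutant over control, in edgeR with TMM scaling, for the 10 transporter genes and the related lists and cell type markers. Filled points passed at an adjusted p under 0.05, open points did not, and black bars are medians. The medians are 0.04 for the transporter genes, -0.997 for NRF2 targets and -1.18 for stellate cell markers.

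Markers of cell types other than hepatocytes also moved, and their part in the transporter results was not tested. Hepatocyte markers, with Hnf4a again among them, rose in 4 of 6 cases and fell in 0 with TMM, with Alb and Ttr not passed (2 higher and 1 lower at library totals), and summed to 47080 to 55980 TPM in mutant livers and 62920 to 75020 TPM in control livers. Endothelial markers, of interest for Abcb1a because P-glycoprotein is also known from vessel walls, fell in 2 of 8 cases and rose in 0, and summed to 39.2 to 54.5 TPM in mutant livers and 68.9 to 133 TPM in control livers. Their median log2 fold change was -0.63, and 6.82% of all tested genes were called lower with TMM. Any link of these markers to the fall of Abcb1a was not tested. Cholangiocyte markers, of interest because bile duct cells are known to carry some of these exporters, fell in 1 of 8 tested cases (Spp1) and rose in 1 (Sox9), and summed to 30.3 to 44.4 TPM in mutant livers and 88.9 to 127 TPM in control livers. The median log2 fold change of the 8 was -0.02 with TMM, so the lower sum does not describe the typical marker of this list.

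Macrophage markers fell in 3 of 8 cases and rose in 0 (53.2 to 104 TPM summed in mutant livers and 182 to 247 TPM in control livers), stellate cell markers fell in 6 of 8 and rose in 0 (62.4 to 69.0 TPM in mutant livers and 188 to 206 TPM in control livers), and lymphocyte markers fell in 1 of 6 and rose in 0 (3.18 to 3.80 TPM in mutant livers and 8.84 to 12.96 TPM in control livers). No marker was at 0 over a whole genotype, and the sums are in TPM, where the typical gene was lower in mutant livers. At an unadjusted p under 0.05, 3 endothelial, 7 macrophage, 7 stellate and 1 lymphocyte markers were lower and 0 of each list higher, and with DESeq2 3, 7, 6 and 1 were lower and 0 higher. At library totals these were 7, 8, 7 and 2 lower and 0 higher, and of the cholangiocyte markers 1 was lower and 0 higher. Of all tested genes, 14.9% were lower at an unadjusted p under 0.05, 10.5% with DESeq2 and 31.5% at library totals. The lymphocyte and cholangiocyte counts at library totals were near or below that last share.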

How the data were processed

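Liver RNA was sequenced as poly(A)-enriched libraries in paired reads of 150 bases, per the labels' protocols. Trimming and alignment tools named in the submitters' processing notes are cutadapt and STAR, with mm10 as the build. Of the annotation, the strand setting and the quantifying program nothing is stated in the labels. Estimated counts and TPM were deposited by the authors for 55487 genes in 6 libraries, with 0 columns left over. Among nonzero deposited estimated counts, 0 were whole numbers (tolerance 1e-06). Over 10983 genes with TPM above 0.5 in every library, the deposited estimated counts equalled TPM times a gene factor and a library factor (largest relative deviation 5.72e-10), so they are length-scaled abundances rather than read numbers.

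After rounding, estimated counts went into edgeR 4.0.16 (R 4.3.3; filterByExpr, TMM, quasi-likelihood F-test on genotype, Benjamini-Hochberg over 14286 genes, threshold 0.05). Standard errors come from the F statistic. Intervals are at 95% and unadjusted. Tried beside this were RLE factors, library totals with and without the 22 Mup genes, no filter, CPM above 1 in at least 3 libraries, DESeq2 1.42.0, a replicate block, each library left out, and limma 3.58.1 on log2(TPM + 1) and log2(TPM + 0.1) with TPM at least 1 in 3 libraries, or no filter. The procedure was tested on simulated data. No libraries were near-duplicates (chi-square at least 48.7 per gene). Gene coordinates are from GENCODE release M21, which held 99.4% of the gene identifiers, and overlapping genes were looked up there.

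The transporter genes and the 12 lists were chosen with earlier results of these data known. Named genes were the 10 transporter genes, Rxra, the partners Slc51a, Abcb1b, Nr1h4 and Nr0b2, and from each pathway list up to 4 called genes with the smallest p. Abcg5, Abcg8, Atp8b1, Abcc1, Rdx, Spp1, Sox9, Alb, Ttr, Vdr and Gpbar1 were named outside this rule. The consensus form of the inverted repeat was chosen after seeing the promoters. A result of 1 listed gene is not reported here.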

Additional observations from a re-analysis of the deposited data

How the results depend on the processing

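Of 155 values of the 10 transporter genes under the alternatives, 117 kept their direction and side of the threshold, 10 gained a call in the same direction and 28 turned, 8 of which passed as lower in the limma fits (Abcb4, Abcc2 and Abcg2), so that 18 gained a call in all; where not stated otherwise, the cause was not tested. The falls of Abcb1a and Abcc3 were in the first set throughout. Transporter genes called lower were 2 with TMM, 4 at library totals, 7 in the limma fits with a TPM minimum and 6 without it. Transporter genes called higher were 0 with TMM, 1 with DESeq2, and 0 to 1 with a library left out. All tested genes called higher were 949 with TMM, 293 at library totals, 405 at totals without Mup genes, 217, 211 and 190 in the limma fits, and 426 to 758 with a library left out. Genes called lower were 974 with TMM, 4501, 1968, 7362, 7315 and 6391 in the same order, 1472 with DESeq2, and 431 to 756 with a library left out. With any library left out, fewer of all tested genes were called in each direction than with all 6. The median log2 fold change of all tested genes was -0.40 at library totals, -0.21 at totals without Mup genes and -0.48 in the limma fit on log2(TPM + 1).

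At library totals, log2 fold changes turned to -0.15 for Abcb4, -0.30 for Abcc2, -0.20 for Abcg2, -0.11 for Abcc4, -0.046 for Slc10a1, -0.027 for Nr1h3, -0.014 for Cyp27a1 and -0.39 for Nr1h4. At totals without Mup genes, they turned to -0.11 for Abcc2, -0.013 for Abcg2 and -0.21 for Nr1h4. In the limma fits with pseudocounts of 1 and 0.1 they turned to -0.34 and -0.35 for Abcb4, -0.49 for Abcc2, -0.39 and -0.40 for Abcg2, -0.25 for Slc10a1, -0.20 for Rxra, -0.22 and -0.23 for Nr1h3, -0.18 for Slc27a5, -0.22 for Cyp27a1 and -0.59 for Nr1h4, and without a filter to -0.12 for Abcc4. With a CPM filter Nr1h4 was -0.015. With a library left out, ranges that crossed 0 were -0.28 to 0.00136 for Abcb11, -0.0020 to 0.24 for Abcc2, -1.13 to 0.70 for Abcc4, -0.12 to 0.078 for Abcc6, -0.86 to 0.45 for Slc51b, -0.52 to 0.51 for Abcb1b and -0.038 to 0.038 for Nr1h4. Ratio differences crossed 0 for Abcc2/Abcc4 (-0.12 to 1.13) and Abcg2/Abcc2 (-0.048 to 0.21).

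Deviations of same-numbered libraries from their group means had correlations of 0.0554, -0.00846 and 0.0921, and the other pairings -0.117 to 0.0719. Values this small cannot tell whether same-numbered libraries were handled together, and the labels do not say. With the replicate block 775 genes were called higher and 783 lower, the transporter calls stayed at 0 higher and 2 lower, and Abcc4 turned to -0.23. Abcc4 and Slc51b have no value in the limma fits with a TPM minimum, and Slc51b has none with the CPM filter. Estimated counts of Slc51b were too low to bound a change of moderate size.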

Other observations

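Mutant replicate 3 stood out in Abcc4 but not across genes. It was at least 2-fold above every other library in 50 of 14286 tested genes (0.350%), while the other 5 libraries held such a place in 37 to 88 genes. This count was made after the Abcc4 values were seen. In that library Abcc4 was 6.12-fold above the mean of the other 2 mutant libraries. Abcc1, the gene of the related exporter MRP1, also had its highest value in mutant replicate 3 and its lowest values in the other 2 mutant libraries, with 0.653, 0.654 and 4.86 CPM in mutant livers and 2.03, 2.94 and 1.28 CPM in control livers, and was singled out after its values were seen.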
